A study of Homo sapiens with 18 samples.

Results

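The 36 genes described here encode the enzymes that turn glucose into pyruvate and lactate, the enzyme complex and regulators that admit pyruvate to the mitochondria, and the enzymes of the pentose phosphate branch. They were chosen by name for these roles out of 55128 genes with a value in the data. Their levels were read in T98G cells, a human glioblastoma line, after 2 h in one of 6 conditions, each with 3 biological replicates by the labels, lettered A to C. Nothing in the labels says that these came from separate cultures, so the p-values measure the spread between these libraries. The conditions were gnetin H at 8 µM with phenformin at 100 µM (GH+Phen), gnetin H alone at 8 µM (GH), 2-deoxyglucose at 10 mM with phenformin at 100 µM (2DG+Phen), 2-deoxyglucose alone at 10 mM (2DG), phenformin alone at 100 µM (Phen), and the solvent DMSO. All of them share 1 cell line and 1 time. GH is an oligostilbene from peony seeds that the study tests as a glycolysis inhibitor, 2DG is a glucose analogue that hexokinase phosphorylates and that then stalls glycolysis, and Phen is a biguanide that inhibits complex I of the respiratory chain. The 2DG dose is that of the sample labels and of the study's methods, while its results text gives a higher one.

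Glucose entering a cell is trapped as glucose 6-phosphate by hexokinase, and phosphofructokinase then commits it to glycolysis. The PFKFB enzymes make and break fructose 2,6-bisphosphate, a strong activator of phosphofructokinase. Pyruvate, the end product, is either reduced to lactate by lactate dehydrogenase or oxidised by pyruvate dehydrogenase, which the PDK kinases switch off and the PDP phosphatases switch on. Glioblastoma lines are known for turning much of their glucose into lactate even with oxygen at hand.

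Levels are given in FPKM, fragments scaled to exon length and to the mapped total, which can be compared between genes. The 12108 genes with at least 0.5 FPKM in at least 3 libraries were compared on the log2(FPKM + 0.1) scale with limma, all 18 libraries in 1 fit, and a gene is said to have risen or fallen at a Benjamini-Hochberg adjusted p under 0.05 over all of these genes. Fold changes on this scale understate those of low genes. Of the 36 members, 35 passed the filter. The exception, ALDOC, the brain form of aldolase, lay between 0.0486 and 0.394 FPKM, on 3 to 24 fragments per library.

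The libraries held between 18417756 and 22497604 mapped fragments, and the members took 1.93 to 2.45% of them in GH+Phen, 2.01 to 2.26% in GH, 2.30 to 2.56% in 2DG+Phen, 2.30 to 2.51% in 2DG, 1.89 to 1.99% in Phen and 1.87 to 2.26% in DMSO. Libraries differed in how a gene's level moved with its GC content. The slope, in log2 units per 10 percentage points of GC relative to the mean of all libraries, was -0.19 in GH+Phen A against 0.23 in GH+Phen B and 0.23 in GH+Phen C, and 0.05 in DMSO C against -0.30 in DMSO A and -0.23 in DMSO B. It ran from -0.17 to 0.04 in GH, from 0.08 to 0.31 in 2DG+Phen, from 0.13 to 0.29 in 2DG and from -0.36 to -0.21 in Phen. Most results below are therefore also given after a correction that takes out, library by library, a smooth curve on GC content and transcript length. DMSO C and GH+Phen A stood apart from the other libraries of their groups, and some of the results that rest on them are given without them too. The line markers VIM (808 to 1063 FPKM), CD44 (310 to 379) and FN1 (52.3 to 77.6) were high, while NES, a glioma stem cell marker, did not exceed 0.0460 FPKM. Of 16 markers of blood, epithelial, endothelial, neuronal and oligodendrocyte cells, 5 were listed at 0 throughout, among them CD3E and CDH1, and PTPRC did not exceed 0.0171 FPKM. Only CD68 (8.79 to 27.3) and SNAP25 (0.555 to 0.991) passed 0.5 FPKM. The summed level of the 16 was 13.7 to 25.0 FPKM in GH+Phen, 14.6 to 20.4 in GH, 22.5 to 28.2 in 2DG+Phen, 21.3 to 26.8 in 2DG, 9.89 to 12.3 in Phen and 9.58 to 16.9 in DMSO, nearly all of it from CD68, and its part in the results was not tested. In RNA from bulk cultures, fewer cells of a kind and less RNA per cell cannot be told apart.

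The letters upstream of these genes give a view of what the promoters hold. Of the members, 34 matched a RefSeq promoter window (GRCh38.p14, 250 bases before to 50 after a transcription start), with 60 windows in all, and PDP1 and PFKFB2 did not. The core of the hypoxia response element, ACGTG, stood on either strand in 40.0% of the member windows, in 20 members, and in 21.4% of all 35116 windows. The E-box CACGTG, which holds ACGTG within it and which MYC, USF and the glucose sensor MondoA are known to bind, stood in 15.0% of member windows, in 9 members, and in 7.26% of all windows. The GC box GGGCGG, bound by SP1, stood in 71.7% of member windows, in 32 members, and in 45.0% of all windows. Among the 8829 tested genes that matched, 33.4% held ACGTG, 12.9% CACGTG and 78.4% GGGCGG in at least 1 window, against 58.8%, 26.5% and 94.1% of the matched members. Matches of this kind are a description and no sign of binding. The 250 bases before the starts of HK2, PFKFB3, ALDOA, PFKL and LDHA are shown because the results below turn on the first 4, which rose in 2DG, and on LDHA, which as deposited did not. They are written 5′ to 3′ on the plus strand, which is the strand of all 5 genes, with the capitals marking every match of the motifs above on either strand. The upstream HK2 window, chr2:74833877-74834126, had 2 ACGTG matches, no E-box and 4 GC boxes, and the downstream HK2 window, chr2:74834920-74835169, which lies within the gene and outside its coding transcripts' exons, had 2 E-boxes and 1 GC box. The PFKFB3 window, chr10:6144671-6144920, had 6 GC boxes and no ACGTG, while another PFKFB3 start had an E-box in its window. The ALDOA window, chr16:30065510-30065759, had 1 ACGTG match and 4 GC boxes, and of its 2 other windows, which lie over exons, 1 had an E-box and neither a GC box. The PFKL window, chr21:44299803-44300052, had 7 GC boxes, some of them sharing a base. The LDHA window, chr11:18394313-18394562, had 3 ACGTG matches, of which 2 were E-boxes, and no GC box, while the other LDHA window had 4 GC boxes and no ACGTG. The windows shown are those with the fewest bases in exons of the gene itself.
HK2 upstream: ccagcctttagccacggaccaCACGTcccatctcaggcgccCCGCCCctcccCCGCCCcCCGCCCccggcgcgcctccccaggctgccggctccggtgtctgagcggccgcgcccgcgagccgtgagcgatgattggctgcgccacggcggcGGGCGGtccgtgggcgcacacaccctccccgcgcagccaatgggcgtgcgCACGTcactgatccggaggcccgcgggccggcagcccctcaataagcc
HK2 downstream: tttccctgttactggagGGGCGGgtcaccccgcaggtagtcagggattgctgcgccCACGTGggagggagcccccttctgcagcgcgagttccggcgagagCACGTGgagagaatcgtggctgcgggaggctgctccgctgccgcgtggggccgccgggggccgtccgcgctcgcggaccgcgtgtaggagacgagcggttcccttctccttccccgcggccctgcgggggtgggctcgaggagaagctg
PFKFB3: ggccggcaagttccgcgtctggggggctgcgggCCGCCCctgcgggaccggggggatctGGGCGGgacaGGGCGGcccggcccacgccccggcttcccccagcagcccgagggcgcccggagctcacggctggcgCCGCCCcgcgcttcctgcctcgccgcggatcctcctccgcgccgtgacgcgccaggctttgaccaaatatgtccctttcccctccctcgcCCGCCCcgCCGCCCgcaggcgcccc
ALDOA: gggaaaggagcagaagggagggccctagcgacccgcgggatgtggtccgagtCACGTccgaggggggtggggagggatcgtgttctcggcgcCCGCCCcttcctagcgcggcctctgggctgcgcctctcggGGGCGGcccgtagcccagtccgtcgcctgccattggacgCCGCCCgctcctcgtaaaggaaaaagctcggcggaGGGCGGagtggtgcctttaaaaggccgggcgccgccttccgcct
PFKL: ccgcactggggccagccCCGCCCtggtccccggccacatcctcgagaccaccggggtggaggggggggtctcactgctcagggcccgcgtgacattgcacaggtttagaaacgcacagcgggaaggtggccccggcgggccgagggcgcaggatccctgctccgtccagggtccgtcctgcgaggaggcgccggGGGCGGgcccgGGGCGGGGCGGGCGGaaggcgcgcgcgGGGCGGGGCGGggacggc
LDHA: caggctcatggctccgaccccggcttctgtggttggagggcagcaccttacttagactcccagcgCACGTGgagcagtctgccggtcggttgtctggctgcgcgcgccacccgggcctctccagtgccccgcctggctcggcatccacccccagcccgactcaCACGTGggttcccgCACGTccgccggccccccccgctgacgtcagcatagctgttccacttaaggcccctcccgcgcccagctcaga

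Of the 35 members tested, 22 changed in 2DG and 20 in 2DG+Phen, 6 in GH+Phen, 2 in GH and 1 in Phen, each against DMSO. In 2DG against DMSO 16 rose and 6 fell, where 24.7% of all genes tested rose and 30.3% fell. After the GC and length correction 18 rose and 2 fell, against 23.6% and 21% of all genes. In 2DG+Phen against DMSO 16 rose and 4 fell (21.1% and 32.8% of all genes), and 25 rose and 2 fell after the correction (28.1% and 22.6%). GH+Phen against DMSO gave 5 rises and 1 fall (9.4% and 18.6%), and 16 rises and 3 falls after the correction (20.3% and 17.7%). In GH against DMSO 2 members rose, HK2 and PDP1, and 0 fell (2.29% and 3.63% of all genes). By limma 3 members had an unadjusted p under 0.05 there, and the corrected values gave 4 rises and 1 fall (7.53% and 7.89%). Phen against DMSO gave 1 rise, PDP1, and 0 falls (0.339% and 0.206%), with 5 members at an unadjusted p under 0.05, and again 1 rise and 0 falls after the correction (2.6% and 0.865%). The gap between 22 members in 2DG and 6 in GH+Phen narrowed without DMSO C and GH+Phen A. Then 21 rose and 7 fell in 2DG, and 21 rose and 4 fell in GH+Phen. GPI, PFKL, TPI1, GAPDH and PKM were among the GH+Phen rises. The median log2 fold change of the members was 0.333 and 0.305 in that fit, beside -0.054 and -0.036 over all genes. The share of all genes called in that fit is not given here.

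The median log2 fold change of the 35 members was 0.11 in GH+Phen, 0.07 in GH, 0.21 in 2DG+Phen, 0.25 in 2DG and -0.05 in Phen, each against DMSO. Over all genes tested the medians were -0.02, 0.01, -0.05, -0.05 and -0.02 in the same order. After the correction the medians of the members were 0.11, 0.05, 0.21, 0.18 and 0.01. The 5 comparisons share the DMSO libraries and are not independent of each other. The study's cut-offs were a fold of at least 2, a Bonferroni p of at most 0.05 and an FPKM of at least 1. Applied to the limma fit, they passed 0 members in any of the 9 comparisons made, where up to 0.463% of all genes rose and up to 0.908% fell. The study used another test, and for 2DG it reported many more rises than the 32 genes found here. The 0 therefore does not tell whether a member passed in the study.

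**Figure D1:**
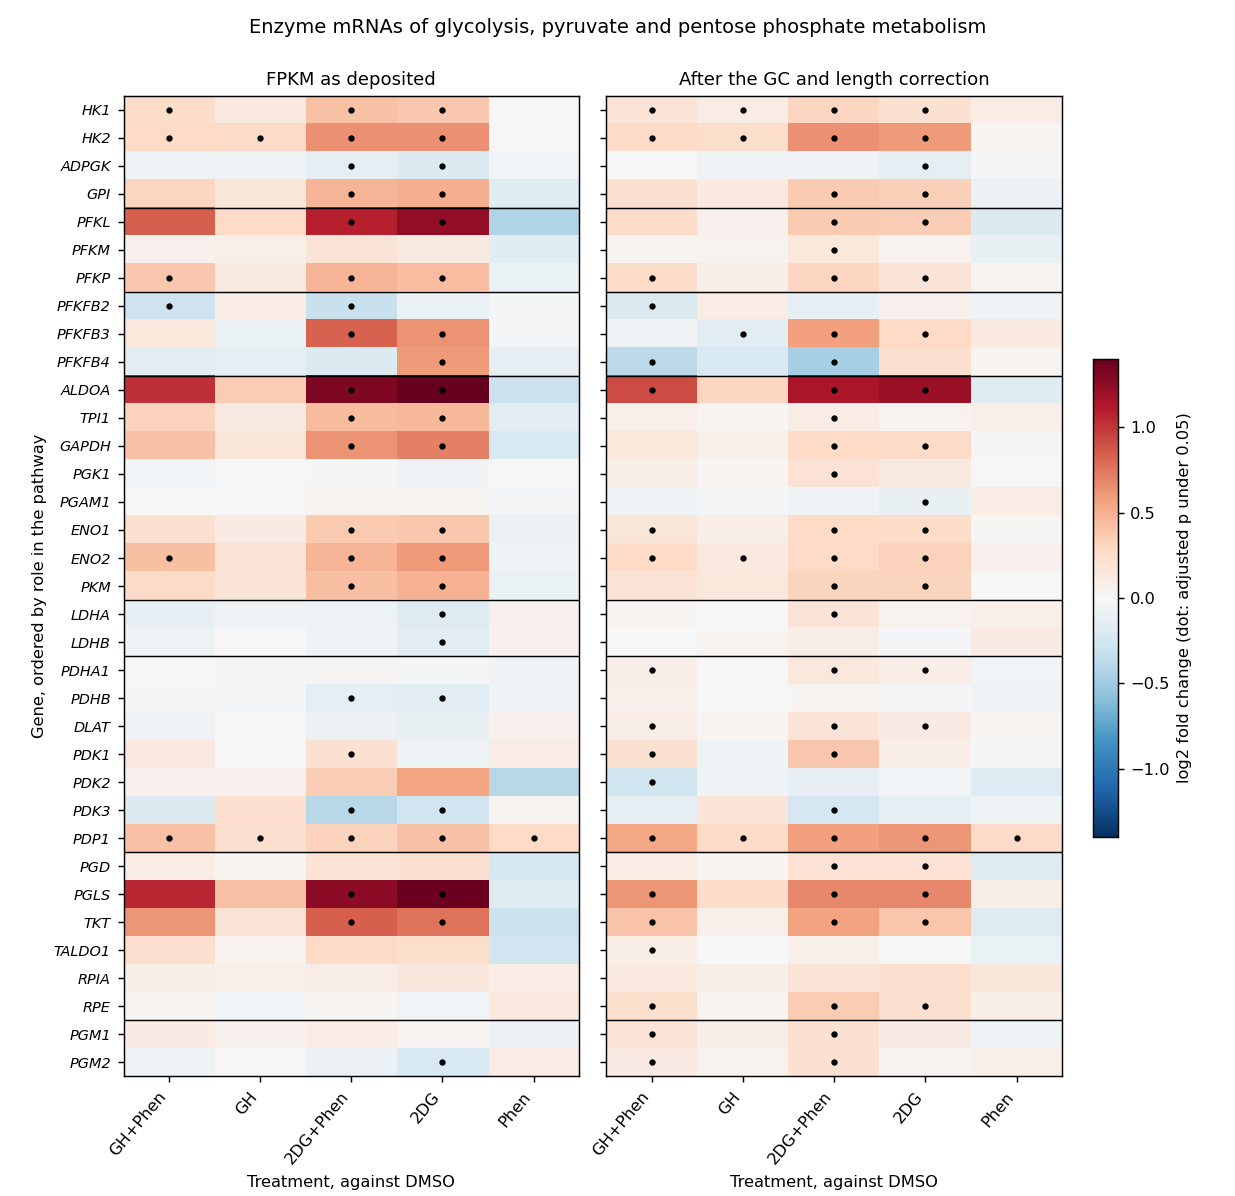
The log2 fold change against DMSO of the 35 members tested (lines, ordered by role with rules between roles) in GH+Phen, GH, 2DG+Phen, 2DG and Phen (columns), from the FPKM values as deposited on the left and after the GC and length correction on the right. Black dots mark an adjusted p under 0.05. In 2DG 16 members rose and 6 fell as deposited, and 18 rose and 2 fell after the correction. HK2 is marked in each column but Phen, and PDP1 in all 5.

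Of the 4 enzymes that form glucose 6-phosphate and turn it into fructose 6-phosphate, 3 rose in both 2DG groups. The share of all genes that rose was 24.7% in 2DG and 21.1% in 2DG+Phen. HK2, the inducible hexokinase that many tumours express, held 33.8, 37.8 and 36.7 FPKM in GH+Phen, 35.2, 35.6 and 36.6 in GH, 46.6, 44.9 and 47.2 in 2DG+Phen, 44.3, 48.0 and 46.7 in 2DG and 29.8, 29.0 and 29.5 in Phen, against 28.5, 29.3 and 31.3 in DMSO. Every library of the 4 groups with GH or 2DG lay above every DMSO library, and the Phen libraries lay among them. The log2 fold change against DMSO was 0.28 ± 0.046 (SE) in GH+Phen (adjusted p = 0.00047, limma), 0.27 ± 0.046 in GH (adjusted p = 0.0028), 0.64 ± 0.046 in 2DG+Phen (adjusted p = 9.7e-08) and 0.64 ± 0.046 in 2DG (adjusted p = 2.4e-07). In Phen it was -0.01 (adjusted p = 0.93). After the correction it was 0.27 in GH+Phen, 0.25 in GH, 0.64 in 2DG+Phen and 0.60 in 2DG, all past the threshold. The 4 rises also passed with each library left out in turn.

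HK1, the hexokinase that most tissues express, averaged 41.0 ± 1.66 FPKM in 2DG+Phen and 40.2 ± 2.41 in 2DG, against 30.9 ± 2.58 in DMSO (SD, n = 3 each), with no overlap between the groups. It rose by 0.41 ± 0.079 on the log2 scale in 2DG+Phen (adjusted p = 0.0008, limma) and by 0.38 ± 0.079 in 2DG (adjusted p = 0.0019), and by 0.30 and 0.21 after the correction. In GH+Phen HK1 held 32.1, 39.5 and 39.4 FPKM, against 28.7, 30.2 and 33.8 in DMSO. Its rise there, 0.26 (adjusted p = 0.027, limma), was 0.18 after the correction and 0.42 without DMSO C and GH+Phen A, and the call was lost without DMSO A, DMSO B, GH+Phen B or GH+Phen C. GPI, the isomerase, held 51.2, 47.2 and 55.8 FPKM in 2DG+Phen and 49.2, 55.0 and 53.8 in 2DG, against 30.6, 35.0 and 46.6 in DMSO. It rose by 0.48 ± 0.17 in 2DG+Phen (adjusted p = 0.029, limma) and by 0.51 ± 0.17 in 2DG (adjusted p = 0.021), by 0.36 and 0.33 after the correction, and missed the threshold in both groups without DMSO A or DMSO B, in 2DG+Phen also without 2DG+Phen A or C and in 2DG without 2DG B or C. ADPGK, a hexokinase that spends ADP, averaged 14.4 ± 0.227 FPKM in 2DG+Phen and 13.9 ± 0.158 in 2DG, against 15.8 ± 0.167 in DMSO (SD, n = 3 each). It fell by 0.14 on the log2 scale in 2DG+Phen (adjusted p = 0.015, limma) and by 0.19 in 2DG (adjusted p = 0.0032), and after the correction its value was -0.05 in 2DG+Phen (adjusted p = 0.27) and -0.13 in 2DG (adjusted p = 0.012).

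The 3 phosphofructokinase subunits ran at different levels and did not change together. PFKP, the platelet subunit, averaged 41.4 ± 4.59 FPKM in 2DG+Phen and 40.1 ± 2.78 in 2DG, against 29.8 ± 3.53 in DMSO (SD, n = 3 each). It rose by 0.47 ± 0.13 in 2DG+Phen (adjusted p = 0.0076, limma) and by 0.43 ± 0.13 in 2DG (adjusted p = 0.013), and by 0.30 and 0.18 after the correction. In GH+Phen PFKP rose by 0.38 (adjusted p = 0.038, limma), with 30.9, 43.7 and 42.9 FPKM against 27.0, 28.7 and 33.8 in DMSO, by 0.26 after the correction and by 0.64 without DMSO C and GH+Phen A, with the call lost without the same 4 libraries as for HK1. PFKL, the liver subunit and at 64.1% GC the most GC-rich member, held 5.48, 4.15 and 6.95 FPKM in 2DG+Phen and 4.54, 6.72 and 6.93 in 2DG, against 1.79, 2.18 and 3.94 in DMSO. Its rise of 1.09 ± 0.35 in 2DG+Phen (adjusted p = 0.018, limma) and of 1.23 ± 0.35 in 2DG (adjusted p = 0.01) was 0.37 and 0.34 after the correction, still past the threshold. PFKM, the muscle subunit, stayed between 9.48 and 12.9 FPKM in all libraries and did not pass the test against DMSO in any group as deposited. After the correction PFKM was 0.15 higher in 2DG+Phen (adjusted p = 0.0073, limma).

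The 3 PFKFB genes went different ways. PFKFB3, whose enzyme makes far more fructose 2,6-bisphosphate than it breaks down, held 12.6, 14.9 and 15.0 FPKM in GH+Phen, 11.3, 12.1 and 12.5 in GH, 22.4, 21.6 and 24.1 in 2DG+Phen, 19.0, 20.3 and 20.0 in 2DG and 12.1, 13.3 and 12.6 in Phen, against 11.7, 12.5 and 14.1 in DMSO. The 6 libraries with 2DG lay above the 12 without it. PFKFB3 rose by 0.82 ± 0.077 in 2DG+Phen (adjusted p = 1.3e-06, limma) and by 0.63 ± 0.077 in 2DG (adjusted p = 3.6e-05), and by 0.57 and 0.28 after the correction. In GH its log2 value was -0.09 (adjusted p = 0.62, limma) and -0.16 after the correction (adjusted p = 0.031). In GH+Phen it was 0.15 (adjusted p = 0.15) and -0.04 after the correction (adjusted p = 0.5).

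PFKFB4, a close relative of PFKFB3, held 1.98, 2.05 and 2.71 FPKM in 2DG+Phen and 3.54, 4.11 and 4.10 in 2DG, against 2.01, 2.77 and 2.97 in DMSO. Its level was highest in the 3 libraries of 2DG, above every other library of the study. PFKFB4 rose by 0.60 ± 0.20 in 2DG against DMSO (adjusted p = 0.02, limma), while the value in 2DG+Phen was -0.19 (adjusted p = 0.42). After the correction the value in 2DG was 0.23 (adjusted p = 0.11) and that in 2DG+Phen was -0.47 (adjusted p = 0.0026). In GH+Phen PFKFB4 held 1.52, 2.77 and 2.73 FPKM, with a log2 value of -0.16 (adjusted p = 0.52, limma), -0.37 after the correction (adjusted p = 0.016) and 0.21 without DMSO C and GH+Phen A. The gene overlaps UCN2 on the same strand, which averaged 2.19 FPKM over all libraries beside 2.62 for PFKFB4, and reads in the shared stretch cannot be told apart. UCN2 averaged 3.59 ± 0.364 FPKM in 2DG, against 1.72 ± 0.779 in DMSO (SD, n = 3 each). PFKFB2, a further member of the family, held 1.73, 1.57 and 1.48 FPKM in GH+Phen and 1.59, 1.66 and 1.45 in 2DG+Phen, against 2.01, 2.02 and 1.86 in DMSO. It fell by 0.29 on the log2 scale in GH+Phen (adjusted p = 0.02, limma) and by 0.31 in 2DG+Phen (adjusted p = 0.0075). After the correction the values were -0.20 (adjusted p = 0.024) in GH+Phen and -0.12 (adjusted p = 0.14) in 2DG+Phen. The fall in GH+Phen missed the threshold without DMSO A, DMSO B, GH+Phen B or GH+Phen C.

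**Figure D2:**
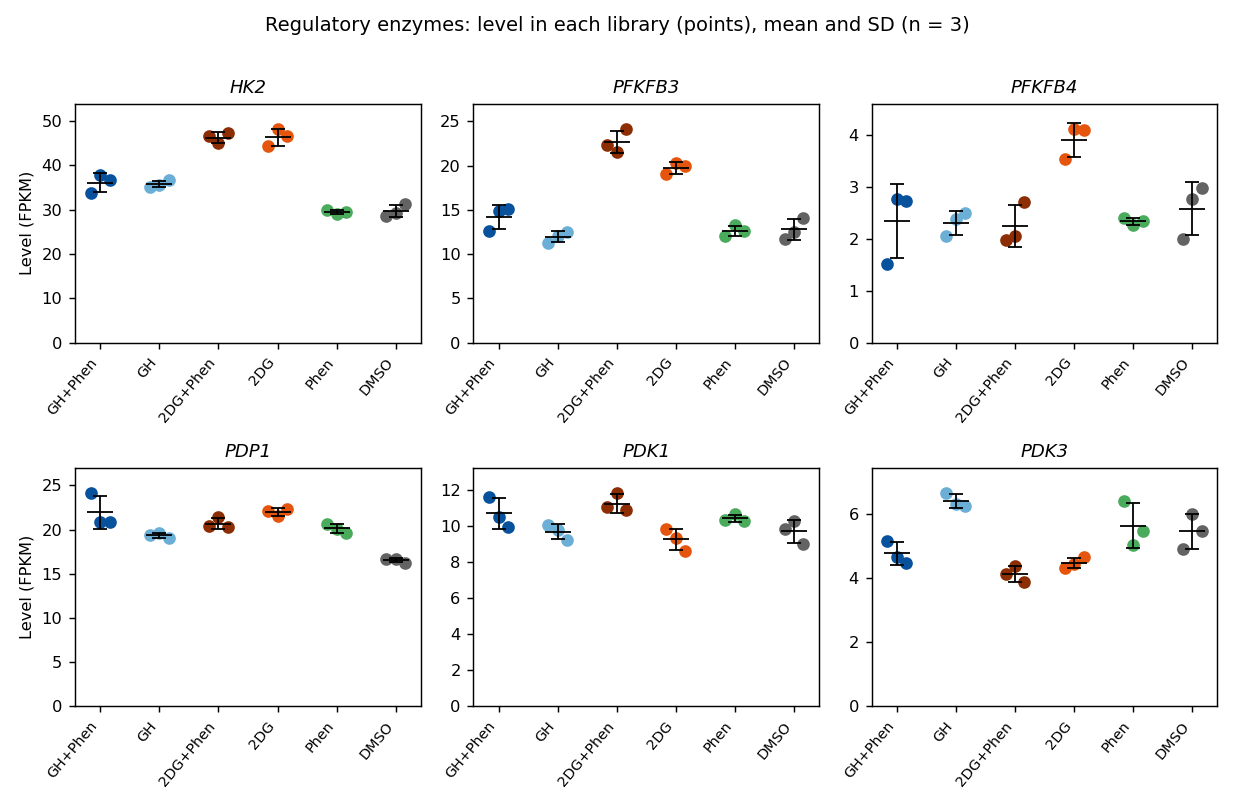
Level in FPKM (vertical axes, from 0) of HK2, PFKFB3, PFKFB4, PDP1, PDK1 and PDK3 in each of the 18 libraries, by group from GH+Phen on the left to DMSO on the right. Points are libraries A, B and C, and bars are the mean and SD of 3 libraries. HK2 lay above DMSO in the 4 groups with GH or 2DG, PFKFB3 in the 2 with 2DG, and PDP1 in all 5 treated groups.

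In the lower part of glycolysis, 6 of the 8 tested genes rose in 2DG and the same 6 in 2DG+Phen, where 24.7% and 21.1% of all genes rose. ALDOA, the main aldolase, which splits fructose 1,6-bisphosphate, held 40.7, 108 and 108 FPKM in GH+Phen, 93.0, 73.0 and 124 in 2DG+Phen and 81.0, 115 and 117 in 2DG, against 26.9, 32.0 and 64.6 in DMSO. Its libraries in both 2DG groups lay above all 3 of DMSO, and DMSO C lay at about the level of the highest GH library, 65.2. ALDOA rose by 1.31 ± 0.38 in 2DG+Phen (adjusted p = 0.011, limma) and by 1.43 ± 0.38 in 2DG (adjusted p = 0.0077), by 1.15 and 1.21 after the correction, and by 1.68 and 1.81 without DMSO C and GH+Phen A. In GH+Phen its value of 1.03 missed the threshold (adjusted p = 0.055, limma), and it was 0.92 after the correction (adjusted p = 0.021) and 1.87 without those 2 libraries.

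GAPDH, which reduces NAD+ and is often used as a reference gene, averaged 1389 ± 184 FPKM in 2DG+Phen and 1463 ± 160 in 2DG, against 914 ± 250 in DMSO (SD, n = 3 each). It rose by 0.63 ± 0.21 in 2DG+Phen (adjusted p = 0.022, limma) and by 0.71 ± 0.21 in 2DG (adjusted p = 0.013), and by 0.28 and 0.27 after the correction. ENO2, the neuronal enolase, averaged 40.4 ± 6.07 FPKM in GH+Phen, 41.8 ± 4.04 in 2DG+Phen and 45.4 ± 1.67 in 2DG, against 30.4 ± 5.78 in DMSO (SD, n = 3 each). Its rise was 0.42 ± 0.13 in GH+Phen (adjusted p = 0.024, limma), 0.47 ± 0.13 in 2DG+Phen (adjusted p = 0.007) and 0.59 ± 0.13 in 2DG (adjusted p = 0.0022), and 0.28, 0.28 and 0.32 after the correction. The ENO2 libraries of GH+Phen overlapped those of DMSO, and the rise there also missed the threshold without DMSO A, DMSO B, GH+Phen B or GH+Phen C. ENO2 overlaps LRRC23 on the same strand, which averaged 3.64 FPKM. PKM, the pyruvate kinase of most tissues and tumours, held 373, 339 and 400 FPKM in 2DG+Phen and 353, 404 and 399 in 2DG, against 239, 258 and 338 in DMSO. It rose by 0.43 ± 0.15 in 2DG+Phen (adjusted p = 0.028, limma) and by 0.48 ± 0.15 in 2DG (adjusted p = 0.016), and by 0.32 and 0.31 after the correction.

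ENO1, the widespread enolase, lay between 573 and 881 FPKM over all libraries and rose by 0.36 in 2DG+Phen (adjusted p = 0.02, limma) and by 0.38 in 2DG (adjusted p = 0.016), and by 0.28 and 0.25 after the correction. TPI1, the triose phosphate isomerase, held 458, 414 and 493 FPKM in 2DG+Phen and 420, 488 and 485 in 2DG, against 284, 313 and 421 in DMSO. DMSO C overlapped both groups. The rise of TPI1, 0.44 ± 0.17 in 2DG+Phen (adjusted p = 0.04, limma) and 0.47 ± 0.17 in 2DG (adjusted p = 0.03), was 0.10 (adjusted p = 0.036) and 0.04 (adjusted p = 0.35) after the correction. PGK1, which makes ATP from 1,3-bisphosphoglycerate, stayed between 357 and 397 FPKM and PGAM1, the phosphoglycerate mutase, between 276 and 316 FPKM, the steadiest of the lower pathway. Neither passed the test against DMSO in any group as deposited. After the correction PGK1 was 0.20 higher in 2DG+Phen (adjusted p = 0.0094, limma) and PGAM1 0.10 lower in 2DG (adjusted p = 0.018). Reads of GAPDH, PGAM1 and LDHA could in part be split with their processed pseudogenes, but the 62, 13 and 6 annotated copies drew 0.00649%, 0.0422% and 0.188% of the parent genes' fragments.

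The GC content of a member's longest transcript went with its change in 2DG. The 16 members that rose had GC contents of 41.0 to 64.1% with a median of 54.7%, the 6 that fell had 39.2 to 47.9% with a median of 43.2%, and the median over all genes tested was 47.1%. Of the 16 rises, 14 also passed after the correction, the exceptions being PFKFB4 and TPI1. Of the 6 falls, ADPGK passed after it, and LDHA, LDHB, PDHB, PDK3 and PGM2 did not. HK2, with a GC content of 50.5%, and PDP1, with 41.0%, kept or enlarged their rise under the correction. How much of the GC-linked difference came from the treatment and how much from library making was not tested.

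**Figure D3:**
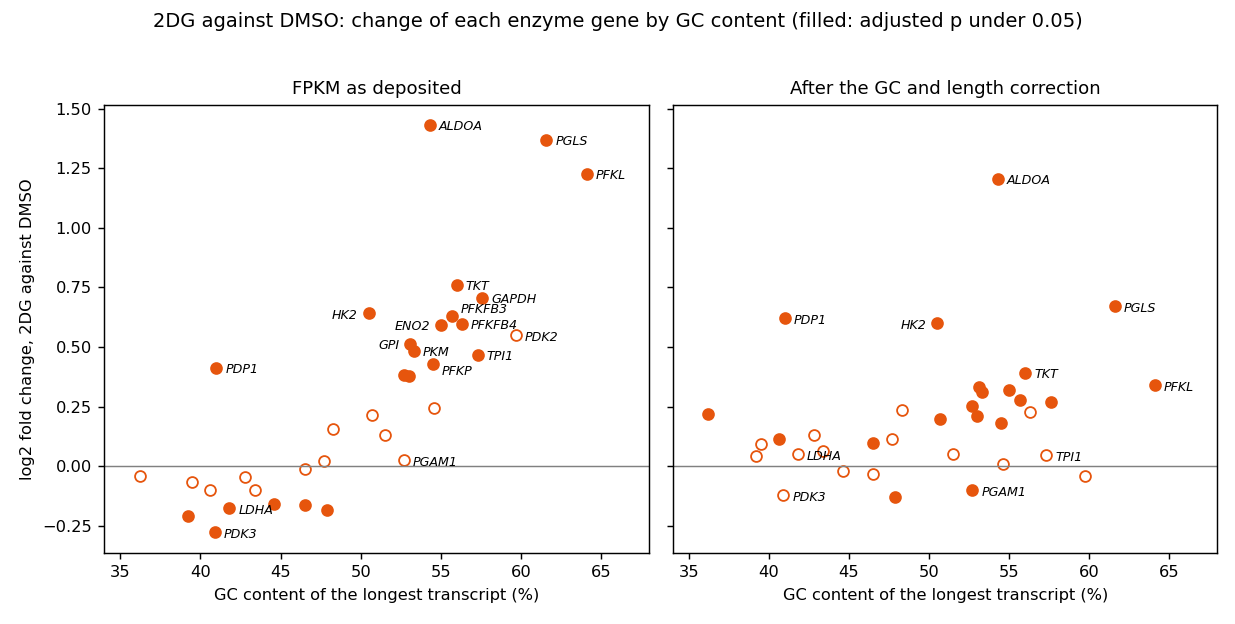
The log2 fold change in 2DG against DMSO (vertical axis) of each of the 35 members tested against the GC content of its longest transcript in percent (horizontal axis), as deposited on the left and after the GC and length correction on the right. Filled points had an adjusted p under 0.05. PFKL stood at 1.23 on the left and at 0.34 on the right, ALDOA at 1.43 and 1.21, and PDP1 at 0.41 and 0.62.

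As deposited, neither lactate dehydrogenase gene rose in any group, and LDHA rose in 2DG+Phen after the correction. LDHA, the muscle subunit that favours lactate formation, held 683, 718 and 659 FPKM in 2DG+Phen and 657, 623 and 629 in 2DG, against 747, 723 and 688 in DMSO. Its 3 libraries in 2DG lay below those of DMSO, and its value of -0.18 ± 0.043 passed the test (adjusted p = 0.0048, limma), whereas after the correction it was 0.05 (adjusted p = 0.065). In 2DG+Phen LDHA had a value of -0.07 (adjusted p = 0.2) and after the correction of 0.19 (adjusted p = 3.8e-06). LDHB, the heart subunit, averaged 365 ± 14.6 FPKM in 2DG+Phen and 336 ± 5.68 in 2DG, against 377 ± 15.8 in DMSO (SD, n = 3 each). It fell by 0.16 on the log2 scale in 2DG (adjusted p = 0.012, limma), with -0.03 after the correction (adjusted p = 0.53). In GH+Phen, GH and Phen neither gene passed the test against DMSO, as deposited or corrected, but without DMSO C and GH+Phen A both passed downwards in GH+Phen, LDHA at -0.18 (adjusted p = 0.0019, limma) and LDHB at -0.16 (adjusted p = 0.0058).

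At the entry to the mitochondria, the regulators PDP1 and PDK3 moved more in the 2DG groups, as deposited, than the subunits of the complex among the members. PDP1, the phosphatase that turns pyruvate dehydrogenase on, held 24.1, 20.8 and 20.9 FPKM in GH+Phen, 19.4, 19.6 and 19.0 in GH, 20.4, 21.4 and 20.2 in 2DG+Phen, 22.1, 21.5 and 22.3 in 2DG and 20.7, 20.1 and 19.6 in Phen, against 16.7, 16.6 and 16.2 in DMSO. All 15 treated libraries lay above all 3 of DMSO. The rise was 0.41 ± 0.049 in GH+Phen (adjusted p = 3.2e-05, limma), 0.23 ± 0.049 in GH (adjusted p = 0.013), 0.32 ± 0.049 in 2DG+Phen (adjusted p = 0.0001), 0.41 ± 0.049 in 2DG (adjusted p = 2.8e-05) and 0.28 ± 0.049 in Phen (adjusted p = 0.019). After the correction it was 0.54, 0.27, 0.58, 0.62 and 0.27 in the same order, all past the threshold. The rise in Phen passed in 1 of the 6 fits that leave out a library, that without DMSO A, and the rise in GH missed the threshold without GH B. The effects of 2DG and Phen on PDP1 did not add up: the combination fell short of the sum of the single effects by 0.37 ± 0.069 on the log2 scale (adjusted p = 0.0049, limma interaction term), where 4.97% of all genes passed this test. After the correction the shortfall was 0.31 (adjusted p = 1e-04). PDP1 was the single member past this test as deposited, with 5 members past it after the correction (12.7% of all genes) and 2 without DMSO C and GH+Phen A (7.45%).

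The kinases that switch the complex off went apart. PDK1, a target of hypoxia signalling, averaged 10.7 ± 0.845 FPKM in GH+Phen, 11.2 ± 0.508 in 2DG+Phen and 9.24 ± 0.595 in 2DG, against 9.69 ± 0.650 in DMSO (SD, n = 3 each). It rose by 0.21 ± 0.066 in 2DG+Phen (adjusted p = 0.016, limma), a call lost without DMSO C or 2DG+Phen B, and by 0.37 after the correction, and had a value of -0.07 in 2DG (adjusted p = 0.39). In GH+Phen its value was 0.14 (adjusted p = 0.12) and 0.21 after the correction (adjusted p = 0.00082). PDK3, another of these kinases, averaged 4.77 ± 0.352 FPKM in GH+Phen, 6.41 ± 0.211 in GH, 4.13 ± 0.252 in 2DG+Phen, 4.47 ± 0.163 in 2DG and 5.63 ± 0.707 in Phen, against 5.46 ± 0.550 in DMSO (SD, n = 3 each). Each of the 6 libraries with 2DG lay below every DMSO library, and each GH library above, the GH value of 0.23 not passing the test (adjusted p = 0.16, limma). It fell by 0.39 ± 0.088 on the log2 scale in 2DG+Phen (adjusted p = 0.0025, limma) and by 0.28 ± 0.088 in 2DG (adjusted p = 0.018). After the correction the values were -0.23 (adjusted p = 0.011) and -0.12 (adjusted p = 0.16). PDK2 was low, from 0.673 to 1.81 FPKM, on 68 to 198 fragments per library, and passed no test as deposited. After the correction PDK2 was 0.28 lower in GH+Phen (adjusted p = 0.033, limma).

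The complex's subunits among the members changed little. Of its subunits outside the members, PDHX fell by 0.235 on the log2 scale in 2DG (adjusted p = 0.0013, limma) and by 0.133 in 2DG+Phen (adjusted p = 0.026). After the correction PDHX stood at -0.042 (adjusted p = 0.36) and 0.082 (adjusted p = 0.069). DLD fell by 0.196 in 2DG+Phen (adjusted p = 0.021, limma) and was 0.113 higher there after the correction (adjusted p = 8.6e-04). PDHA1, the catalytic E1 alpha subunit, stayed between 34.3 and 36.7 FPKM, the narrowest range of the members at 1.07-fold, and passed no test against DMSO as deposited. PDHB, the E1 beta subunit, averaged 10.2 ± 0.270 FPKM in 2DG+Phen and 10.1 ± 0.109 in 2DG, against 11.3 ± 0.435 in DMSO (SD, n = 3 each). It fell by 0.14 on the log2 scale in 2DG+Phen (adjusted p = 0.026, limma) and by 0.16 in 2DG (adjusted p = 0.015), with values of 0.03 (adjusted p = 0.58) and -0.02 (adjusted p = 0.7) after the correction. DLAT, the E2 subunit, ranged from 27.1 to 32.3 FPKM and passed no test as deposited. DLAT and PDHA1 each passed the test upwards after the correction in GH+Phen, 2DG+Phen and 2DG, by 0.09 to 0.18 on the log2 scale.

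In the pentose phosphate branch, which makes NADPH and ribose, 2 of the 6 members rose in 2DG and in 2DG+Phen as deposited. Over all genes tested 24.7% rose in 2DG and 21.1% in 2DG+Phen, so this count does not set the branch apart. PGLS, the lactonase of the oxidative arm, with 61.6% GC, held 3.34, 2.92 and 4.81 FPKM in 2DG+Phen and 3.47, 4.14 and 4.21 in 2DG, against 0.956, 1.16 and 2.74 in DMSO. Its rise was 1.25 ± 0.39 in 2DG+Phen (adjusted p = 0.017, limma) and 1.37 ± 0.39 in 2DG (adjusted p = 0.011), and 0.67 in each after the correction. TKT, the transketolase, averaged 35.8 ± 5.63 FPKM in 2DG+Phen and 33.7 ± 3.71 in 2DG, against 20.2 ± 5.34 in DMSO (SD, n = 3 each). It rose by 0.84 ± 0.23 in 2DG+Phen (adjusted p = 0.0075, limma) and by 0.76 ± 0.23 in 2DG (adjusted p = 0.013), and by 0.57 and 0.39 after the correction. In GH+Phen TKT held 20.2, 37.3 and 37.7 FPKM and PGLS 1.52, 4.35 and 4.62, the A library of each lying among those of DMSO. Their values there, 0.62 for TKT (adjusted p = 0.053, limma) and 1.06 for PGLS (adjusted p = 0.056), passed after the correction at 0.40 and 0.61. Both genes also rose there without DMSO C and GH+Phen A.

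PGD, the 6-phosphogluconate dehydrogenase, ranged from 79.2 to 117 FPKM, TALDO1, the transaldolase, from 65.3 to 114, RPIA, the ribose 5-phosphate isomerase, from 5.17 to 7.44, and RPE, the ribulose 5-phosphate epimerase, from 37.1 to 45.7. None of these 4 passed a test against DMSO as deposited. After the correction PGD rose in 2DG+Phen and 2DG, both by 0.20, RPE in GH+Phen, 2DG+Phen and 2DG, by 0.22 to 0.35, and TALDO1 in GH+Phen, by 0.09. PGM1, which links glycogen to glucose 6-phosphate, ranged from 36.1 to 44.7 FPKM and passed no test as deposited, with 0.19 in GH+Phen (adjusted p = 0.013, limma) and 0.21 in 2DG+Phen (adjusted p = 0.0042) after the correction. PGM2, which acts on pentose phosphates, averaged 21.0 ± 0.470 FPKM in 2DG, against 24.3 ± 0.680 in DMSO (SD, n = 3 each). PGM2 fell by 0.21 on the log2 scale there (adjusted p = 0.0047, limma), with 0.04 after the correction (adjusted p = 0.35), and the corrected value was 0.21 in 2DG+Phen (adjusted p = 0.00014).

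**Figure D4:**
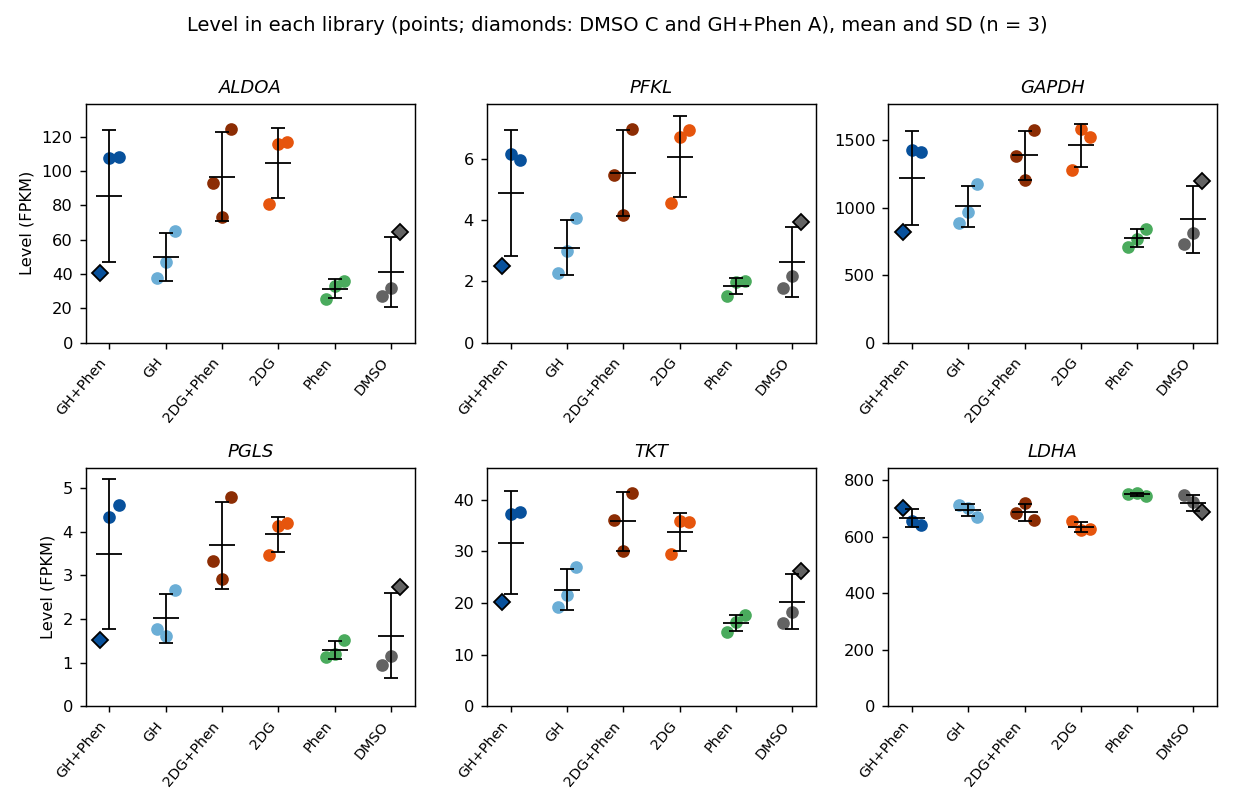
Level in FPKM (vertical axes, from 0) of ALDOA, PFKL, GAPDH, PGLS, TKT and LDHA in each of the 18 libraries, by group from GH+Phen on the left to DMSO on the right. Diamonds are the libraries GH+Phen A and DMSO C, circles the others, and bars the mean and SD of 3 libraries. ALDOA stood at 40.7 FPKM in GH+Phen A, against 108 in GH+Phen B and C, and at 64.6 in DMSO C, against 26.9 and 32.0 in DMSO A and B.

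Adding Phen to 2DG changed 2 members against 2DG alone, 1 in each direction, where 3.53% of all genes rose and 7.69% fell. PDK1 was higher in 2DG+Phen by 0.28 ± 0.066 (adjusted p = 0.012, limma), and PFKFB4 was lower by 0.79 ± 0.20 (adjusted p = 0.016), each with no overlap between the 2 groups' libraries. Both passed after the correction, at 0.28 and -0.69, among 8 rises and 1 fall (12.6% and 10.6% of all genes). Among those rises PFKFB3 was 0.29 higher in 2DG+Phen after the correction (adjusted p = 0.00039, limma), beside 0.20 as deposited (adjusted p = 0.14). LDHA, at 0.11 as deposited (adjusted p = 0.13), was 0.14 higher after the correction (adjusted p = 0.00022), and PFKFB2 stood at -0.21 as deposited (adjusted p = 0.13) and at -0.18 after it (adjusted p = 0.053). The call of PFKFB4 was lost when 2DG B, 2DG C, 2DG+Phen A or 2DG+Phen B was left out, and that of PDK1 without 2DG C or 2DG+Phen B. For PFKFB4 the combination fell short of the sum of the single effects by 0.67 (adjusted p = 0.22, limma interaction term) as deposited and by 0.73 (adjusted p = 0.0056) after the correction.

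Adding Phen to GH changed 3 members against GH alone, PDP1 upwards and PFKFB2 and PDK3 downwards, where 3.3% of all genes rose and 9.22% fell. PDK3 fell by 0.42 ± 0.088 on the log2 scale (adjusted p = 0.0061, limma) and PFKFB2 by 0.39 ± 0.084 (adjusted p = 0.0065), with no overlap between the libraries of GH+Phen and GH. PFKFB2 stood at 2.06, 2.21 and 2.10 FPKM in GH, all above its GH+Phen libraries. PDP1 rose by 0.18 ± 0.049 (adjusted p = 0.025, limma), a call lost without any of the 3 GH libraries. PFKFB3 came next, at 0.24 ± 0.077 (adjusted p = 0.053) and at 0.12 after the correction (adjusted p = 0.09). All 3 passed after the correction, among 8 rises and 2 falls (11.4% and 10.5% of all genes). For PDK3 the combination lay below the sum of the single effects of GH and Phen by 0.46 ± 0.13 (adjusted p = 0.047, limma interaction term), where 5.19% of all genes passed this test, and by 0.23 after the correction (adjusted p = 0.14). PDK3 was the single member past this test as deposited, while 4 others, PDK1, TKT, TALDO1 and RPE, passed it after the correction (11.4% of all genes), and 12 passed without DMSO C and GH+Phen A (23.2%), PDK3 among them. Without GH+Phen A 15 members passed in GH+Phen against GH. The share of all genes called in that fit is not given, so the 15 cannot be taken as particular to the members.

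Set directly against 2DG, GH went with less PFKFB3 and HK2 mRNA and with more PDK3 mRNA. Of the 35 members 6 were higher and 8 lower in GH than in 2DG, where 24.7% of all genes were higher and 14.6% lower. After the correction 1 was higher and 15 lower (17.3% and 18% of all genes). LDHA was among the 6 higher as deposited and among the 15 lower after the correction, so its direction depended on the correction. The log2 fold change of GH over 2DG was -0.72 ± 0.077 for PFKFB3 (adjusted p = 1.6e-05, limma) and -0.37 ± 0.046 for HK2 (adjusted p = 5.7e-05), and -0.44 and -0.35 after the correction. PDK3 was higher in GH by 0.51 ± 0.088 (adjusted p = 0.00073, limma), the single rise left after the correction, at 0.30. PGM2 was higher by 0.20 ± 0.050 (adjusted p = 0.0077, limma), with 0.01 after the correction (adjusted p = 0.86). In the combinations, 2 members were lower in GH+Phen than in 2DG+Phen and 0 were higher, where 2.16% of all genes were lower and 8.33% higher. They were PFKFB3, at -0.68 ± 0.077 (adjusted p = 4.8e-05, limma), and HK2, at -0.36 ± 0.046 (adjusted p = 0.00013). After the correction 7 were lower and 0 higher (9.72% and 8.35% of all genes), with PFKFB3 at -0.61 and HK2 at -0.38. By limma 4 members had an unadjusted p under 0.05 between the combinations as deposited. The next smallest were PDHB, at 0.11 (adjusted p = 0.18), and PDK3, at 0.20 (adjusted p = 0.19).

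Of 49 other genes of these pathways, listed for their function, 25 passed the filter on low values. As deposited 0 rose and 6 fell in GH+Phen, 6 rose and 14 fell in 2DG+Phen and 6 rose and 8 fell in 2DG, against DMSO, while 0 changed in GH or Phen by limma. After the correction 5 rose and 5 fell in GH+Phen, 8 rose and 4 fell in 2DG+Phen and 7 rose and 3 fell in 2DG. The shares of all genes in these comparisons are those given with the counts of the members. MINPP1, a phosphatase that removes the phosphate of 2,3-bisphosphoglycerate, averaged 5.99 ± 0.802 FPKM in GH+Phen, 5.21 ± 0.295 in 2DG+Phen and 4.53 ± 0.236 in 2DG, against 7.53 ± 0.898 in DMSO (SD, n = 3 each). It fell by 0.33 on the log2 scale in GH+Phen (adjusted p = 0.02, limma), by 0.52 in 2DG+Phen (adjusted p = 0.00057) and by 0.72 in 2DG (adjusted p = 7.6e-05), and by 0.20, 0.31 and 0.53 in the same order after the correction. Its GH+Phen libraries overlapped those of DMSO, and the call there was lost without DMSO A, DMSO B, GH+Phen B or GH+Phen C. PDP2, the second pyruvate dehydrogenase phosphatase, averaged 4.17 ± 0.121 FPKM in GH+Phen, 5.46 ± 0.382 in GH, 4.01 ± 0.268 in 2DG+Phen and 6.18 ± 0.321 in 2DG, against 4.69 ± 0.444 in DMSO. PDP2 rose by 0.39 in 2DG against DMSO (adjusted p = 0.00086, limma) and had a log2 fold change of -0.61 in 2DG+Phen against 2DG (adjusted p = 4.6e-05) and of -0.38 in GH+Phen against GH (adjusted p = 0.0031), each passing also after the correction.

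TIGAR, which lowers fructose 2,6-bisphosphate, fell by 0.30 on the log2 scale in GH+Phen (adjusted p = 0.016, limma), by 0.46 in 2DG+Phen (adjusted p = 0.0005) and by 0.33 in 2DG (adjusted p = 0.0062), and after the correction its values were -0.19 (adjusted p = 0.02), -0.22 (adjusted p = 0.006) and -0.13 (adjusted p = 0.085) in the same order. The call of TIGAR in GH+Phen was lost without the same 4 libraries as that of MINPP1. PGM3, of the hexosamine pathway, fell by 0.26 in GH+Phen (adjusted p = 0.0052, limma), by 0.34 in 2DG+Phen (adjusted p = 0.00033) and by 0.34 in 2DG (adjusted p = 0.00051), and after the correction its values were -0.11 (adjusted p = 0.02), -0.06 (adjusted p = 0.19) and -0.12 (adjusted p = 0.015) in the same order.

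The counts against DMSO depended on single libraries. In 2DG against DMSO 10 members passed when DMSO A was left out, 25 when DMSO C was and 14 when 2DG B was. More calls in 2DG than that of GPI were thus lost with a library left out, and they are not named gene by gene. In 2DG+Phen against DMSO 11 passed when DMSO A or 2DG+Phen C was left out and 12 when DMSO B was. In GH+Phen against DMSO 2 passed on leaving out DMSO A, DMSO B, GH+Phen B or GH+Phen C, 19 without DMSO C and 23 without GH+Phen A. The share of all genes called in these fits is not given here, so the shifts cannot be taken as particular to the members.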

How the data were processed

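Stranded libraries of polyadenylated RNA were read from both ends. Per the study's methods, the authors used CLC Genomics Workbench version 11 for alignment to GRCh38 and for counting on Ensembl release 89 models, by strand. They deposited FPKM for 55128 genes. Whole fragments could be recovered from the FPKM steps for 25156 of the 25158 genes above 0 (99.992%, tolerance 0.001), which gave the depths. There were 0 columns without a sample.

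All 12108 genes past the filter were fitted on log2(FPKM + 0.1) with limma 3.58.1 (trend, R 4.3.3), with 6 group means and 12 residual degrees of freedom. GC content and length of the longest GENCODE 44 transcript were known for 12022 of them (99.29%), and the correction used natural splines with 5 degrees of freedom for each. The fit was tested on simulated data. Figures were made with Python 3.11.15, numpy 2.4.6, pandas 2.3.3 and matplotlib 3.10.9.

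The members and lists were chosen with earlier results of these data known. Named in full are members that passed with an absolute log2 fold change of at least 0.4 against DMSO and, between treatments, the 4 with the smallest adjusted p. The other pathway genes named are among those that passed, up to 4 a comparison taken by adjusted p. PDHX and DLD are named outside this rule, as subunits of pyruvate dehydrogenase. As to pairing, the replicate letters have no stated meaning across groups. Libraries of GH and DMSO with the same letter deviated together (every correlation over 0.1), and a replicate block left the count there at 2. Alternatives were other pseudocounts, filters, scalings, blocks, left-out libraries and the study's thresholds.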

Additional observations from a re-analysis of the deposited data

Results flagged for a closer look

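For PDP1 the effect of phenformin with 2DG minus its effect without 2DG was -0.372 on the log2 scale (adjusted p = 0.0049, limma interaction term), so that phenformin's effect differed between cells with and without 2DG. PDP1 averaged 20.7 FPKM in 2DG+Phen, 22.0 in 2DG and 20.1 in Phen, against 16.5 in DMSO. For PDK3 the same difference with GH was -0.461 (adjusted p = 0.047), with 4.77 FPKM in GH+Phen, 6.41 in GH and 5.63 in Phen, against 5.46 in DMSO. The PDK3 difference was -0.23 after the GC and length correction (adjusted p = 0.14).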

How the results depend on the processing

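The count of members that changed is given here under each alternative that moved it by more than 1.5 times. For the correction the shares of all genes are given above. The other counts of this section stand without that share, and a shift in them cannot be taken as particular to the members. Leaving out DMSO C and GH+Phen A moved the genes past the GH interaction test from 5.19% to 23.2% of all genes. In 2DG against DMSO it was 22, and in 2DG+Phen against DMSO 20. In GH+Phen against DMSO, 6 as reported, it was 10 with median-of-ratios scaling, 19 with the GC and length correction, 25 without DMSO C and GH+Phen A, 26 with both, and 1 with only the compared groups in the fit. In GH against DMSO, 2 as reported, it was 5 with the correction, 8 without these 2 libraries, 12 with both, and 0 with only the compared groups. In Phen against DMSO, 1 as reported, it was 2 with both and 0 with only the compared groups. In 2DG+Phen against 2DG, 2 as reported, it was 9 with the correction, 5 without the 2 libraries and 11 with both. In GH+Phen against GH, 3 as reported, it was 10, 22 and 23 in the same order, and 0 with only the compared groups. In GH against 2DG, 14 as reported, it was 9 with no filter on low values, 27 without the 2 libraries, 24 with both and 25 with only the compared groups. In GH+Phen against 2DG+Phen, 2 as reported, it was 7 with the correction, 8 with both and 1 with only the compared groups. The combined setting of the correction without the 2 libraries was chosen after seeing the data. At the cut-offs of the study, applied to the limma fit, it was 0 in all 9 comparisons. By limma the unadjusted p was under 0.05 for 24 members in 2DG, 22 in 2DG+Phen, 11 in GH+Phen, 3 in GH and 5 in Phen, against DMSO, and for 7 in 2DG+Phen against 2DG, 4 in GH+Phen against GH, 20 in GH against 2DG and 4 in GH+Phen against 2DG+Phen.

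With single libraries left out the counts ran from 10 to 25 in 2DG, 11 to 24 in 2DG+Phen, 2 to 23 in GH+Phen, 1 to 2 in GH and 0 to 1 in Phen, against DMSO, from 0 to 2 in 2DG+Phen against 2DG, 2 to 15 in GH+Phen against GH and 6 to 19 in GH against 2DG. The low GH count was that without GH B. In 2DG+Phen against 2DG 0 members passed without 2DG C or without 2DG+Phen B, and 1 without 2DG+Phen A. In GH against 2DG 7 passed without 2DG B, 2DG C or GH B and 6 without GH A. In GH+Phen against 2DG+Phen the count was 2 each time. With 1 library left out, the spread of the smaller group rests on that of all groups.

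The replicate letters were also used as a replicate block. Correlations of the deviations of same-letter libraries ran from -0.434 to 0.592, with a median of 0.23 and 29 of 45 over 0.1. Those of libraries with different letters in different groups ran from -0.715 to 0.564, with a median of -0.116 and 21 of 90 over 0.1. The replicate block gave 18 members in GH+Phen against DMSO, 6 in 2DG+Phen against 2DG and 23 in GH against 2DG. With it ALDOA (adjusted p = 0.0048, limma), TKT (adjusted p = 0.0062) and PGLS (adjusted p = 0.0082) passed in GH+Phen against DMSO, where the B libraries of the 2 groups did not deviate together, so that the letters are not taken to pair these groups. The replicate block with the correction gave 24 in GH+Phen against DMSO, 5 in GH against DMSO, 4 in Phen against DMSO, 10 in 2DG+Phen against 2DG, 13 in GH+Phen against GH, 23 in GH against 2DG and 7 in GH+Phen against 2DG+Phen.

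Of 62 member values past the threshold that were followed through the alternatives, 51 passed in the same direction under the GC and length correction. Another 8 kept their sign there but fell short of the threshold. With no filter on low values 8 fell short, and 14 with only the compared groups. Pseudocount 1, the stricter filter of 1 FPKM and the replicate block moved 0 across it. LDHA in GH against 2DG, which was not among the 62, passed upwards as deposited and downwards with the correction. Of the 62, the remaining 3 changed sign and also missed the threshold, all with the correction. LDHA in 2DG was 0.050 with it and with the block, and 0.053 without the 2 libraries too. PGM2 in 2DG was 0.042, 0.042 and 0.065 in the same order, and PDHB in 2DG+Phen 0.027, 0.027 and 0.024. The cause was not tested. With about 20304455 fragments in the median library, ALDOC and PDK2 were counted on few fragments.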
